A study of Mus musculus with 15 samples.

Results

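The 9 genes described here encode 8 enzymes and proteins that remove reactive oxygen species or respond to them, and the inducible nitric oxide synthase. They are Sod1, Sod2, Cat, Gpx1, Gpx4, Txn1, Nqo1, Hmox1 and Nos2, chosen by name from the 48709 genes of the table. RNA was sequenced from pancreatic islets of NOD mice, an inbred strain whose females develop autoimmune diabetes, at 4, 6, 8, 10 and 12 weeks of age with 3 mice per age. All 15 samples were of the NOD genotype, and no other strain was compared. The methods describe the mice as females and give no treatment for them, and the islets were isolated after collagenase digestion. The design asked how insulitis, the entry of immune cells into the islets, develops over these weeks. Each sample was a bulk sample of islets with the cells attached to them, so that fewer cells of a type and less RNA per cell cannot be told apart.

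Superoxide dismutases convert superoxide into hydrogen peroxide, which catalase and the glutathione peroxidases then break down, the latter at the cost of glutathione. Thioredoxin repairs oxidized cysteines, and Nqo1 and Hmox1 are classical targets of the transcription factor Nrf2. Beta cells are known for low levels of catalase and glutathione peroxidase, and macrophages and beta cells exposed to cytokines make nitric oxide through Nos2.

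The samples differed in their content of immune cells. Total counts ran from 25407492 to 41616275 per mouse, with a median of 28004882. The 12 endocrine markers (such as Chga and Isl1) summed to 22930 to 24320 CPM (counts scaled by TMM to a common library size) at 4 weeks and to 11510 to 14330 at 12 weeks, with 11 of 12 lower. The 22 leukocyte markers (such as Ptprc and Cd3e) were all higher at 12 weeks, from a sum of 48.2 to 236 CPM at 4 weeks to 2010 to 2380 CPM, and so were the 7 macrophage markers among them (36.8 to 164 CPM against 1018 to 1109) and the 6 mesenchymal markers. None of the 8 acinar markers was called, but their sum varied widely between mice of one age (1196 to 9991 CPM at 4 weeks, 3038 to 12510 at 12 weeks). At 12 weeks, replicate 1 had a sum of 331 CPM over 7 intestinal markers, against 40.3 and 47.3 CPM in the other mice of that age.

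Between 4 and 12 weeks, 4 of the 9 genes rose: Cat 3.34-fold, Nos2 2.82-fold, Gpx1 2.26-fold and Hmox1 2.12-fold. The other 5 genes were not called (adjusted p under 0.05 in the edgeR quasi-likelihood test), and none was called lower. Among these, Sod1 and Sod2 had negative log2 fold changes. Of all 16554 genes tested, 26.3% were called higher and 27.2% lower at this contrast, and all 9 genes passed the filter on low counts. The 9 genes had a median log2 fold change of 0.31, and all genes tested one of -0.05. In 6 of the 9 genes the 12-week mice did not overlap the 4-week mice, a state shared by 64.2% of all genes. When all 5 ages were tested jointly for a change, 6 of the 9 genes were called (Cat, Gpx1, Hmox1, Txn1, Sod2 and Nos2), where 56% of all genes were.

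**Figure D1:**
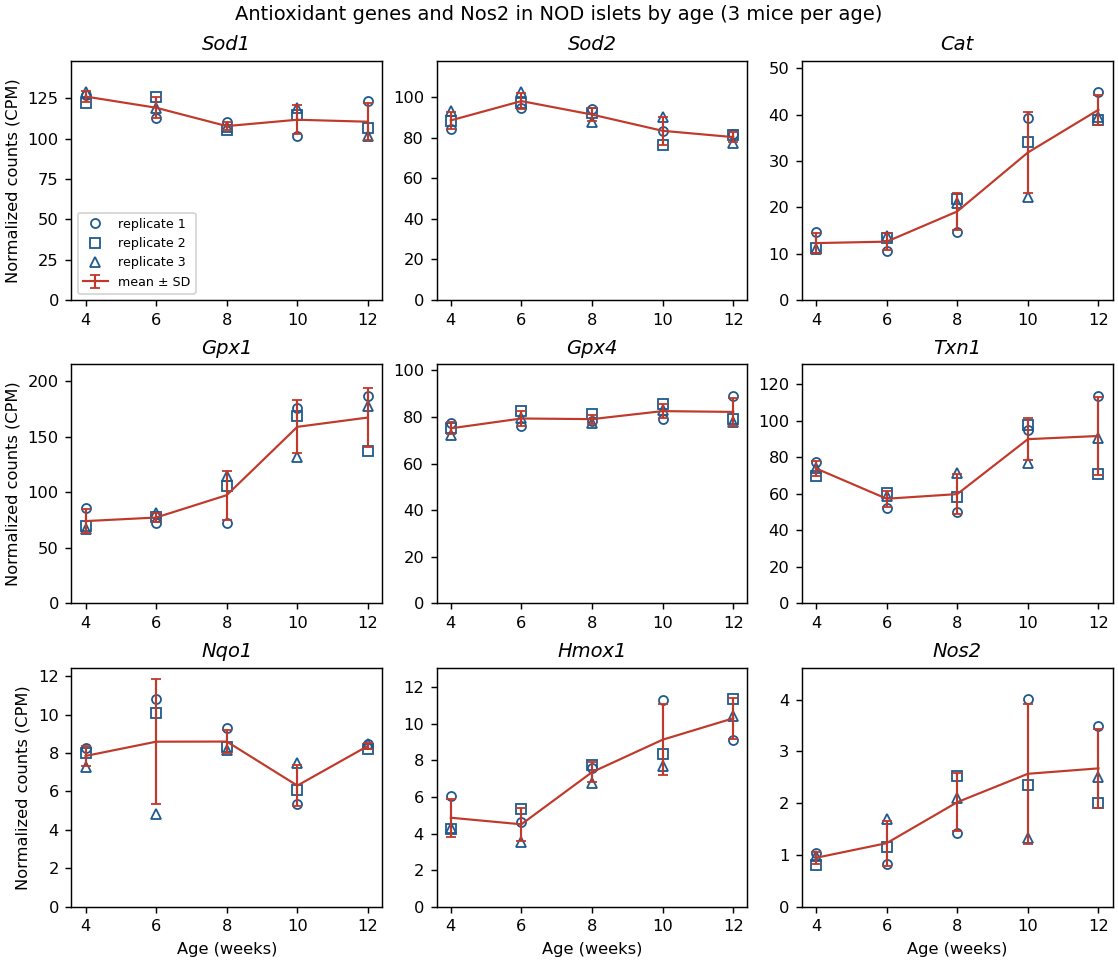
TMM-scaled counts, CPM (vertical axis, from 0, a scale of its own in each panel) of the 9 genes against age in weeks, with 1 open symbol per mouse and the mean ± SD of 3 mice in red. Cat, Gpx1, Hmox1 and Nos2 climb with age, Txn1 lies lower at 6 and 8 weeks than at 4 and 10, and Sod1, Sod2 and Gpx4 stay within a narrow band.

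Promoter sequence could be shown for 7 of the 9 genes from RefSeq (GRCm38.p6), in windows of 300 bases with 250 before the start. Nos2 and Hmox1 had no window. The following 3 stretches lie before the start of a gene that changed at 10 weeks (Cat, Txn1) and of 1 that was not called (Sod1). Each is written 5′ to 3′ on the strand of the gene and ends where the region of the gene in the deposited table begins. Capitals mark motifs on either strand. These are the GC box bound by SP1, which is spelled GGGCGG, the box named by its letters CCAAT, and the antioxidant response element, TGACNNNGC.
Cat, chr2:103485161-103485403, minus strand: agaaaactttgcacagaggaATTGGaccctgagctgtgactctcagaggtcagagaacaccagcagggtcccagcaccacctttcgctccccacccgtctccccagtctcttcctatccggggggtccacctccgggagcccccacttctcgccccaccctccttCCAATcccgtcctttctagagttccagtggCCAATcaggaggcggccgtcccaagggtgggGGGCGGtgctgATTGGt
Txn1, chr4:57956412-57956661, minus strand: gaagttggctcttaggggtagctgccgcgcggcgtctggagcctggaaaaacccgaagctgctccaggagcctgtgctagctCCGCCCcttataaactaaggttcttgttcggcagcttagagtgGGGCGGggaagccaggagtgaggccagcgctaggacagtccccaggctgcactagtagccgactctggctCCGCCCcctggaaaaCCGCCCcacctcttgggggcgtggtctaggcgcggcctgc
Sod1, chr16:90220512-90220741, plus strand: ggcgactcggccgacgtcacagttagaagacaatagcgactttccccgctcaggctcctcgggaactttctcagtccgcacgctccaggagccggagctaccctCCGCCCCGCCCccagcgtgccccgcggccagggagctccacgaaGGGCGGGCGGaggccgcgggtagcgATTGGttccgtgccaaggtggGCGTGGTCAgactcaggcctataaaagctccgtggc

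The antioxidant response element, the site bound by Nrf2, was found in 1 of the 7 genes, Sod1, on the opposite strand 56 bases before the RefSeq start. It was present in 12.4% of all 32851 promoter windows. CCAAT boxes were found 4 times in the Cat window, and 37.4% of all windows had at least 1, while GC boxes stood in 35.7% of windows and at 4 positions in that of Txn1. A gamma-activated site (TTCNNNGAA, 8.3% of windows) stood 185 bases before the start of Sod2 and an NF-kB motif (GGANTNTCC, 3.73% of windows) 93 bases before that of Txn1. The AP-1 motif (TGANTCA, 7.81% of windows) was in none of the 7. These are matches of letters in short windows, on both strands, and do not show that a factor binds there.

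Neither of the intracellular dismutases was called at 12 against 4 weeks. Sod1 (chromosome 16, 90220742 to 90226322, GRCm38) encodes the cytosolic copper-zinc enzyme, and it gave 127, 122 and 129 CPM in the 3 mice at 4 weeks, 113, 126 and 119 at 6, 111, 106 and 107 at 8, 102, 114 and 119 at 10, and 124, 106 and 102 at 12. The 12-week range reached into the 4-week range through replicate 1 alone, and the mean level was 87.6% of that at 4 weeks. The log2 fold change was -0.19 ± 0.08 (SE, n = 3 per age, adjusted p = 0.0535 by edgeR), with a 95% interval of -0.36 to -0.02. Without the 12-week replicate 1, the mouse with the intestinal markers, it was -0.28 (adjusted p = 0.00813). Sod2 (chromosome 17, 13007839 to 13018119), the manganese enzyme of mitochondria, gave 84.5, 88.1 and 92.9 CPM at 4 weeks, 94.7, 97.0 and 102 at 6, 94.1, 92.1 and 87.9 at 8, 83.2, 76.6 and 90.4 at 10, and 82.0, 81.4 and 77.4 at 12. Its mean was highest at 6 weeks and lowest at 12 weeks, and at both ages no mouse overlapped the 4-week mice. The lowest single value was that of replicate 2 at 10 weeks. The joint test called a change in Sod2 (adjusted p = 0.0132), whereas 12 against 4 weeks was not called (-0.14 ± 0.06, adjusted p = 0.0806).

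The direction of both dismutases depended on the scaling. With library totals in place of TMM, which shifted the median of all genes upward by 0.25 on the log2 scale, Sod1 was at 0.05 and Sod2 at 0.10. On the authors' TPM scale Sod1 was likewise higher at 12 weeks (429 ± 29.0 TPM, mean ± SD of 3) than at 4 weeks (376 ± 22), and so was Sod2 (52.7 ± 1.66 against 44.5 ± 1.77).

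Cat, which encodes catalase of peroxisomes (chromosome 2, 103453849 to 103485160, minus strand), showed the greatest fold change of the 9 genes. It gave 14.7, 11.2 and 11 CPM at 4 weeks, 10.5, 13.5 and 13.8 at 6, 14.6, 21.8 and 21.0 at 8, 39.3, 34.1 and 22.2 at 10, and 44.9, 38.8 and 39.5 at 12. Every mouse of 10 and 12 weeks was above every mouse of 4 and 6 weeks, and the lowest value at 8 weeks was within the range of 4 weeks. The log2 fold change at 12 against 4 weeks was 1.74 ± 0.21 (adjusted p = 0.000186, 95% interval 1.28 to 2.20), and it stayed between 1.66 and 1.89 when any 1 of the 6 mice was left out.

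Gpx1, the ubiquitous glutathione peroxidase (chromosome 9, 108338903 to 108340343), gave 86.2, 69.3 and 66.7 CPM at 4 weeks, 72.7, 78.1 and 81.0 at 6, 72.5, 105 and 114 at 8, 176, 169 and 132 at 10, and 187, 138 and 177 at 12. Here too the 6 mice of 10 and 12 weeks were above all 9 younger mice. The log2 fold change was 1.18 ± 0.17 (adjusted p = 0.000349). Gpx4, which reduces lipid hydroperoxides in membranes (chromosome 10, 80047166 to 80056439), gave 77.4, 75.5 and 72.4 CPM at 4 weeks, 75.9, 82.5 and 79.6 at 6, 78.3, 81.3 and 77.6 at 8, 79.2, 85.5 and 82.8 at 10, and 89.2, 79.3 and 78.0 at 12. All 12-week values were above all 4-week values, but by little, and the change was not called (log2 fold change 0.13 ± 0.06, adjusted p = 0.0841, 95% interval 0.0001 to 0.26). It was called with DESeq2's size factors (0.19, adjusted p = 0.0183), with DESeq2 (0.19, 0.00912) and with library totals (0.37, 0.000565). Without the 12-week replicate 1 it was 0.07 (adjusted p = 0.346).

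Ratios between the genes were computed in each mouse from TPM, which is per transcript length, and are given as a description because they were chosen with the changes of their genes known. The ratio of Gpx1 to Gpx4 was 1.58 ± 0.18 at 4 weeks and 3.27 ± 0.44 at 12 weeks. The ratio of Cat to Sod1 was 0.0241 ± 0.00393 and 0.0920 ± 0.00357 at these ages, and that of Gpx1 plus Cat to Sod1 plus Sod2 was 0.338 ± 0.0492 and 0.895 ± 0.123. In these ratios the 2 ages did not overlap. The ratio of Sod1 to Sod2 was 8.45 ± 0.41 and 8.15 ± 0.67. A ratio shows unequal change and not that either gene stayed constant.

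**Figure D2:**
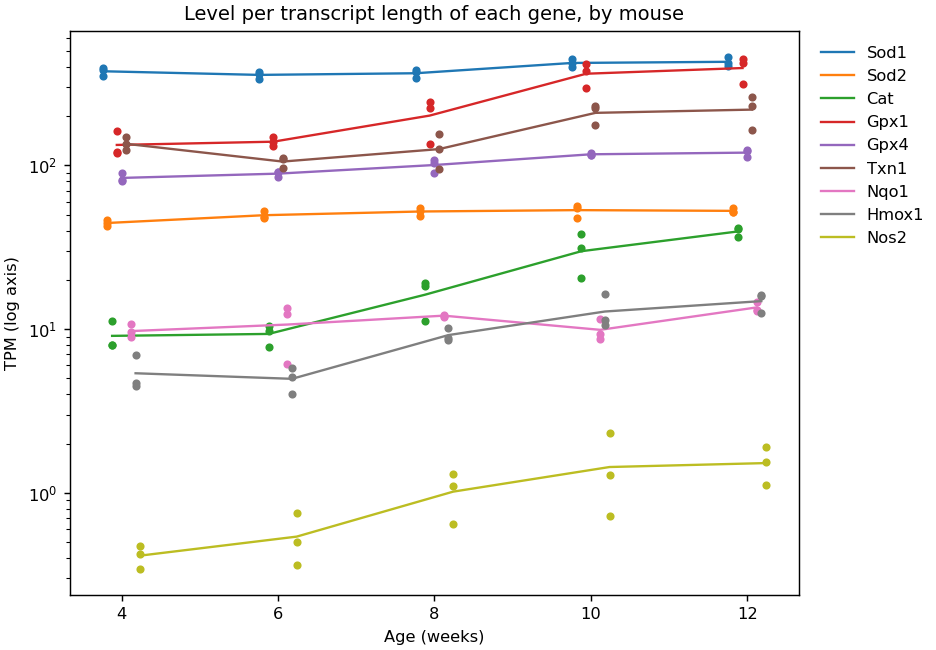
TPM (log axis) of the 9 genes against age in weeks, with 1 point per mouse and a line through the mean of 3 mice, shifted sideways per gene for legibility. Gpx1 approaches Sod1 at 10 and 12 weeks, Cat and Hmox1 pass Nqo1, and Nos2 remains the lowest at each age.

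On the TPM scale, which allows levels of different genes to be set side by side, Sod1 was the highest at each age and Nos2 the lowest (0.413 ± 0.0675 TPM at 4 weeks and 1.52 ± 0.398 at 12). At 4 weeks the order was Sod1, Txn1 (135 ± 12.3), Gpx1 (133 ± 24.1), Gpx4 (83.8), Sod2, Nqo1 (9.72), Cat (9.09), Hmox1 (5.37) and Nos2. Txn1 and Gpx1 overlapped between mice there, as did Nqo1 and Cat, and all other neighbours were apart. At 12 weeks the order was Sod1, Gpx1 (393 ± 70.1), Txn1 (219 ± 49.1), Gpx4 (120), Sod2, Cat (39.5), Hmox1 (14.8), Nqo1 (13.6) and Nos2. Sod1 and Gpx1 now overlapped, as did Hmox1 and Nqo1. These orders compare genes within one age. Between ages the TPM and CPM scales differed, and Gpx4, which was not called, had a mean of 75.1 CPM at 4 weeks and 82.2 CPM at 12 weeks.

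Txn1, the cytosolic thioredoxin (chromosome 4, 57943373 to 57956411, minus strand), had a course of its own. It gave 77.7, 69.9 and 74.1 CPM at 4 weeks, 52.3, 60.7 and 59.0 at 6, 49.97, 58.2 and 71.3 at 8, 95.1, 97.9 and 76.8 at 10, and 114, 70.8 and 90.4 at 12. All 6-week mice were below all 4-week mice, and all 10-week mice were above all 8-week mice. The joint test called Txn1 (adjusted p = 0.00709), and 12 against 4 weeks did not (log2 fold change 0.31 ± 0.16, adjusted p = 0.122). Without the 12-week replicate 2, the lowest of its age, the value was 0.46 (adjusted p = 0.0232), and with library totals 0.56 (0.0206). Without the 12-week replicate 1, the highest of its age, it was 0.13 (adjusted p = 0.519). A processed copy listed as Txn-ps1 had 0 counts in all samples, and how the authors' pipeline placed reads that match more than 1 copy is not given in the sources used here.

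Hmox1, heme oxygenase 1 (chromosome 8, 75093621 to 75100589), which degrades heme and is induced by oxidative stress, gave 6.06, 4.23 and 4.31 CPM at 4 weeks, 4.64, 5.34 and 3.55 at 6, 7.59, 7.74 and 6.75 at 8, 11.3, 8.36 and 7.71 at 10, and 9.11, 11.4 and 10.4 at 12. Every mouse from 8 weeks on was above every mouse of 4 and 6 weeks. The log2 fold change at 12 against 4 weeks was 1.08 ± 0.20 (adjusted p = 0.000861). Nqo1, the quinone reductase (chromosome 8, 107388225 to 107403206, minus strand), gave 8.27, 7.99 and 7.27 CPM at 4 weeks, 10.8, 10.1 and 4.85 at 6, 9.30, 8.31 and 8.18 at 8, 5.36, 6.08 and 7.48 at 10, and 8.46, 8.19 and 8.46 at 12. The 6-week mice held both the highest and the lowest value of the series. No comparison called Nqo1, and its 12 against 4 week log2 fold change was 0.09 ± 0.23, with a 95% interval of -0.40 to 0.59, wider than those of Sod1, Sod2 and Gpx4.

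Nos2 (chromosome 11, 78920787 to 78960254) makes nitric oxide from arginine and is induced by interferon gamma together with interleukin 1 or TNF. It was the gene with the fewest reads, with 19 to 28 counts in the 4-week mice, 21 to 44 in those of 6 weeks, 39 to 71 in those of 8, 40 to 111 in those of 10 and 60 to 108 in those of 12 weeks. Scaled, these were 1.05, 0.812 and 0.977 CPM at 4 weeks, 0.832, 1.16 and 1.69 at 6, 1.42, 2.53 and 2.11 at 8, 4.02, 2.36 and 1.33 at 10, and 3.5, 2.01 and 2.51 at 12. The 12-week mice were above all 4-week and 6-week mice, while at 10 weeks replicate 3 fell among the 6-week values. A floor of 3 counts corresponds to 0.0721 to 0.118 CPM, so that all mice were above it. The log2 fold change was 1.49 ± 0.40 (adjusted p = 0.00754), and it ran from 1.25 to 1.66 with a mouse left out (adjusted p up to 0.0314).

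Between neighbouring ages, calls were made only at 10 against 8 weeks, where Cat (log2 fold change 0.73 ± 0.21, adjusted p = 0.036), Gpx1 (0.71 ± 0.17, 0.0283) and Txn1 (0.59 ± 0.16, 0.0346) rose. Of all genes, 8.4% were called higher and 8.37% lower at this step, and 32.7% did not overlap, as did 4 of the 9 genes here. These 3 calls depended on single mice and on the fit, and none was left without the 8-week replicate 1 or 2 or the 10-week replicate 1 or 2 (adjusted p 0.0699 to 0.152), in a fit of the 2 ages alone (0.171 for each), by the edgeR exact test (0.0807 to 0.127) or with the replicate number as a replicate block (0.0571 to 0.067). The folds were similar: without 1 of those 4 mice Cat was at 0.56 to 0.83, Gpx1 at 0.53 to 0.76 and Txn1 at 0.47 to 0.56. The loss was not particular to these genes, since the number of all genes called at this step went from 2776 to 140 by the exact test and to 0 in the other settings named. The fourth gene without overlap, Nqo1, was lower at 10 weeks (-0.45 ± 0.23, adjusted p = 0.17), and Sod2 was at -0.13 ± 0.06, called only without the 10-week replicate 3 (-0.19, adjusted p = 0.0316).

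At 8 against 6 weeks edgeR called 0 of the 9 genes and 0% of all genes, with 2 of the 9 genes, Hmox1 and Cat, at an unadjusted p under 0.05. Hmox1 had the smaller p (log2 fold change 0.70 ± 0.20, unadjusted p = 0.00345, adjusted p = 0.172), and DESeq2, which called 1 of the 9 genes, called it (adjusted p = 0.0363) among 543 of all genes. Cat was at 0.60 ± 0.21 (adjusted p = 0.199). Both pass a rule of at least 1.5-fold with an unadjusted p under 0.05, which 9.82% of all genes pass at this step. The ages did not overlap in 4 of the 9 genes (Hmox1, Cat, Sod1 and Sod2) and in 19.3% of all genes.

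At 6 against 4 weeks edgeR called 0 of the 9 genes and 0.0906% of all genes, DESeq2 called 0, and 2 of the 9 had an unadjusted p under 0.05. These were Txn1 (-0.37 ± 0.16, adjusted p = 0.55) and Sod2 (0.15 ± 0.06, adjusted p = 0.535), the 2 genes without overlap, as in 17.6% of all genes. The edgeR exact test on the 2 ages called Txn1 (-0.37, adjusted p = 0.00557), among 265 of all genes. At 12 against 10 weeks edgeR called 0 of the 9 genes and 0% of all genes, and none of the 9 had an unadjusted p under 0.05. DESeq2 and the exact test also called 0 of the 9, and they called 12 and 7 of all genes. Nqo1 was the 1 gene without overlap there (0.41 ± 0.23, adjusted p = 0.701, against 9.82% of all genes), and Cat was at 0.37 ± 0.20 (adjusted p = 0.697).

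**Figure D3:**
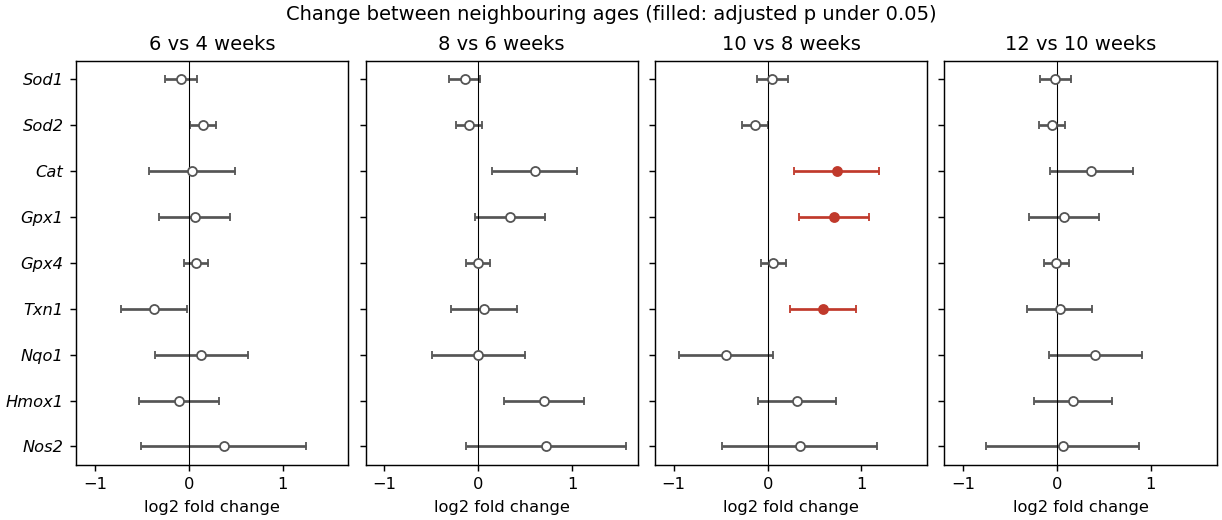
Log2 fold change (horizontal axis) of each gene at the 4 steps between neighbouring ages, with 95% intervals of the edgeR fit, filled red where the adjusted p is under 0.05. The 3 filled points are Cat, Gpx1 and Txn1 at 10 against 8 weeks (0.59 to 0.73).

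Within the ages of 4 to 10 weeks, Cat, Gpx1 and Nos2 were lowest or highest in the same mouse as the leukocyte markers. At 12 weeks this depended on how the markers were summarized. At 8 weeks the markers summed to 176, 684 and 986 CPM in the 3 mice, and replicate 1, with the lowest sum, had the lowest Cat, Gpx1, Txn1 and Nos2. At 10 weeks they summed to 2431, 1793 and 1027 CPM, and replicate 3, with the lowest sum, had the lowest Cat, Gpx1, Txn1, Hmox1 and Nos2 and the highest Nqo1. At 4 weeks replicate 1 had the highest sum (236 CPM against 80.0 and 48.2) and the highest Cat, Gpx1, Txn1, Hmox1, Nqo1 and Nos2. Replicate 3 at 6 weeks (268 CPM against 70.9 and 122) had the highest Cat, Gpx1 and Nos2 but the lowest Hmox1 and Nqo1, and at 8 weeks Hmox1 was lowest in the mouse with the highest sum. At 12 weeks replicate 1, with the lowest sum (2010 CPM against 2090 and 2380), had the highest Cat, Gpx1, Txn1 and Nos2, and the lowest Hmox1. By the mean log2 CPM of the same markers (5.63, 5.61 and 5.97 in replicates 1, 2 and 3), replicate 2 was lowest instead. Replicate 2 had the lowest Cat, Gpx1, Txn1 and Nos2 of that age, and the highest Hmox1. These orders are descriptions of 3 mice each.

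When the mean log2 CPM of the leukocyte markers entered the fit as a covariate, the 12 against 4 week log2 fold changes were 0.66 ± 0.29 for Cat (adjusted p = 0.506), 0.90 ± 0.41 for Hmox1 (0.526), 0.28 ± 0.24 for Gpx1 (0.77), -0.10 ± 0.72 for Nos2 (0.98) and -0.23 ± 0.30 for Txn1 (0.864). Nqo1 was at 0.85 ± 0.42 (adjusted p = 0.573). None of the 9 genes was called in that fit, and 2 of all 16554 genes were. The covariate and age moved together, with the lowest marker sum at 12 weeks above all but 1 of the sums at younger ages, so the errors were larger, and age and the share of leukocytes cannot be told apart in these samples.

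**Figure D4:**
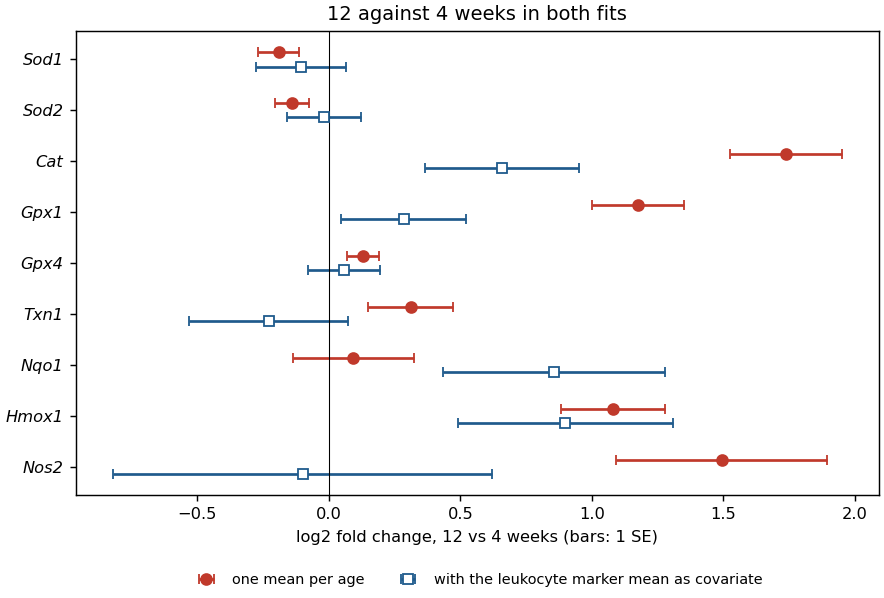
Log2 fold change at 12 against 4 weeks (horizontal axis, bars of 1 SE) of the 9 genes with one mean per age (filled circles) and with the leukocyte marker mean added as a covariate (open squares). Hmox1 is at 1.08 and 0.90, Cat at 1.74 and 0.66, and Nos2 at 1.49 and -0.10.

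The genes whose log2 CPM was most like that of each member over the 15 mice are given as a description, with Pearson's r. All of these correlations share the age groups and the leukocyte course. Nearest to Cat were Ptgs1 (0.99), Camk1d (0.99) and Adam15 (0.99), to Gpx1 Ctsz (0.99), Ldha (0.99) and Cd82 (0.99), and to Nos2 Rab11fip1 (0.96), Prdm1 (0.95) and Slc13a3 (0.95). Txn1 was most like Psma2 (0.98), a proteasome subunit, Mcm7 (0.97), a replication factor, and Taldo1 (0.96), an enzyme of the pentose phosphate pathway. Hmox1 was most like St3gal1 (0.96), Zfpm2 (0.96) and Rspo1 (0.94). The flatter genes had Eny2 (0.94), Tssc4 (0.93) and Krt8 (0.92) next to Sod1, Naa35 (0.94), Shc2 (0.94) and Trappc10 (0.94) next to Sod2, Chmp4b (0.88), Ces2c (0.85) and H2-Bl (0.84) next to Gpx4, and Mecr (0.84), Sqrdl (0.79) and Hip1r (0.79) next to Nqo1. Among the members themselves, Cat and Gpx1 had an r of 0.97, and Cat and Sod2 one of -0.78. These r values were computed with TMM scaling only, and the direction of Sod2 depended on the scaling. By TPM both Cat (9.09 and 39.5) and Sod2 (44.5 and 52.7) had a higher mean at 12 weeks than at 4 weeks.

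Related genes were taken from 7 lists of the same pathways, and all values are 12 against 4 weeks. At this contrast 26.3% of all 16554 genes tested were called higher and 27.2% lower with TMM, the shares beside which the list counts stand. Of 13 further superoxide and peroxide enzymes, 3 rose and 5 fell (median log2 fold change -0.04, against -0.05 over all genes). The secreted dismutase Sod3 rose by 2.75 ± 0.42 (adjusted p = 0.000406), from 5.54 ± 2.27 to 37.3 ± 4.34 CPM, and Gpx8 and Gpx7 of the endoplasmic reticulum rose by 1.46 and 0.73 on the log2 scale. Gpx2 (-1.09), the plasma glutathione peroxidase Gpx3 (-1.02), Prdx4 (-0.69) and Srxn1 (-0.57) fell, and so did Prdx2. Prdx1 was at 0.12 ± 0.08 (adjusted p = 0.193). In contrast to Gpx1, Gpx3 thus went from 1004 ± 50.5 to 494 ± 84.3 CPM.

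Of 17 genes of the thioredoxin and glutathione systems, 5 rose and 5 fell (median -0.11), and with library totals 7 rose and 1 fell. The greatest change was in Slc7a11, the cystine importer that feeds glutathione synthesis, which had 2 to 13 counts in the 4-week mice and 429 to 572 in the 12-week mice (log2 fold change 5.47 ± 1.02, adjusted p = 0.000987). Txnip, an inhibitor of thioredoxin, rose by 0.77, and the methionine sulfoxide reductases Msra and Msrb1 by 0.56 and 0.45. Msrb2 (-0.64), Glrx5 (-0.59), the modifier subunit of glutamate-cysteine ligase Gclm (-0.40) and Glrx2 (-0.32) fell with TMM. The catalytic subunit Gclc was at 0.05 ± 0.06 (adjusted p = 0.5). Of the partners of Txn1, Txnrd1, which reduces it, was lower with TMM (-0.26 ± 0.07, adjusted p = 0.00925). Library totals shifted the median of all genes upward by 0.25, about as much as this change. The mitochondrial Txn2 was higher (0.21 ± 0.08, adjusted p = 0.032), a call that was lost without the 12-week replicate 1 (0.18, adjusted p = 0.104).

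Of 19 genes of the Nrf2 system, 12 rose and 2 fell (median 0.30). Without the 12-week replicate 1, 10 of the 19 were called, 8 of them higher. Nfe2l2, which encodes Nrf2, rose by 0.51 ± 0.13 (adjusted p = 0.00555), and its inhibitor Keap1 was at -0.20 ± 0.08 (adjusted p = 0.0394) with TMM and at 0.04 with library totals. Mgst1 (1.68), Ephx1 (1.26) and G6pdx (0.56) rose, and the partner Mafg fell (-0.62). Gsta4 was at 2.00 ± 0.55 (adjusted p = 0.00846), with 431 counts in the 12-week replicate 1 and 86 and 85 in the others, and at 0.77 without that mouse (adjusted p = 0.05001). By the rule of at least 1.5-fold with an unadjusted p under 0.05, 4 of the 19 genes passed, as did 31.9% of all genes. Of 11 genes of heme and iron handling, 3 rose and 2 fell (median 0.17), and with library totals 6 rose and 0 fell. The hemoglobin scavenger receptor Cd163 (2.28), biliverdin reductase Blvrb (1.26) and ferritin light chain Ftl1 (0.38) rose, and Fech (-0.35) and Slc48a1 (-0.33) fell. The constitutive heme oxygenase Hmox2 was at 0.17 ± 0.07 (adjusted p = 0.0517), beside 1.08 ± 0.20 for Hmox1.

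Around Nos2, 4 of 15 genes of nitric oxide and arginine metabolism rose and 5 fell (median -0.16). The endothelial synthase Nos3 rose by 0.71 ± 0.17 (adjusted p = 0.00468), from 5.34 ± 0.30 to 8.74 ± 0.66 CPM, and the neuronal Nos1 was at -0.22 ± 0.35 (0.616), which turned to 0.02 with library totals. Ass1, which regenerates arginine, rose by 1.07 ± 0.30 (adjusted p = 0.00989), and Spr by 0.47. Qdpr (-0.84), Arg1 (-0.68), the arginine transporter Slc7a2 (-0.64) and Gch1, the first enzyme of the synthesis of the cofactor tetrahydrobiopterin (-0.55), fell, as did Pts with TMM but not with library totals (0.01). Arg2 was called higher (4.75 ± 1.29, adjusted p = 0.00823) on the basis of 1 mouse, with 705 counts in the 12-week replicate 1 and 29 and 19 in the others. Without that mouse it was at 1.38 (adjusted p = 0.152).

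Of 7 genes that take part in the induction of Nos2, 6 rose and 1 fell (median 0.80). The interferon gamma receptor chains Ifngr1 (1.58) and Ifngr2 (1.3), the transcription factor Irf1 (1.53) and the TNF receptor Tnfrsf1a (0.80) had the greatest increases. The interleukin 1 receptor Il1r1 was lower with TMM (-0.42), a call not made with library totals. Of 16 genes of the NADPH oxidases, which produce superoxide, 10 were tested, of which 8 rose and 1 fell (median 2.97). Cybb, the catalytic subunit of the phagocyte oxidase, rose by 2.79 ± 0.64 (adjusted p = 0.00309), from 16.9 ± 12.2 to 117 ± 21.9 CPM. Hvcn1 (4.74), Rac2 (4.64), Ncf1 (3.59) and Ncf4 (3.33) had the greatest increases, and Noxo1 fell (-0.44), a call lost without the 12-week replicate 1 (-0.51, adjusted p = 0.0517) and with either other scaling. Nox1, Noxa1, Duox1, Duox2, Duoxa1 and Duoxa2 had too few counts for a test. With the leukocyte covariate none of the genes of the 7 lists was called. Only 2 of all 16554 genes were called in that fit, so this loss was not particular to the lists. The macrophage and leukocyte sums given above were also higher at 12 weeks, and their relation to these increases was not tested.

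**Figure D5:**
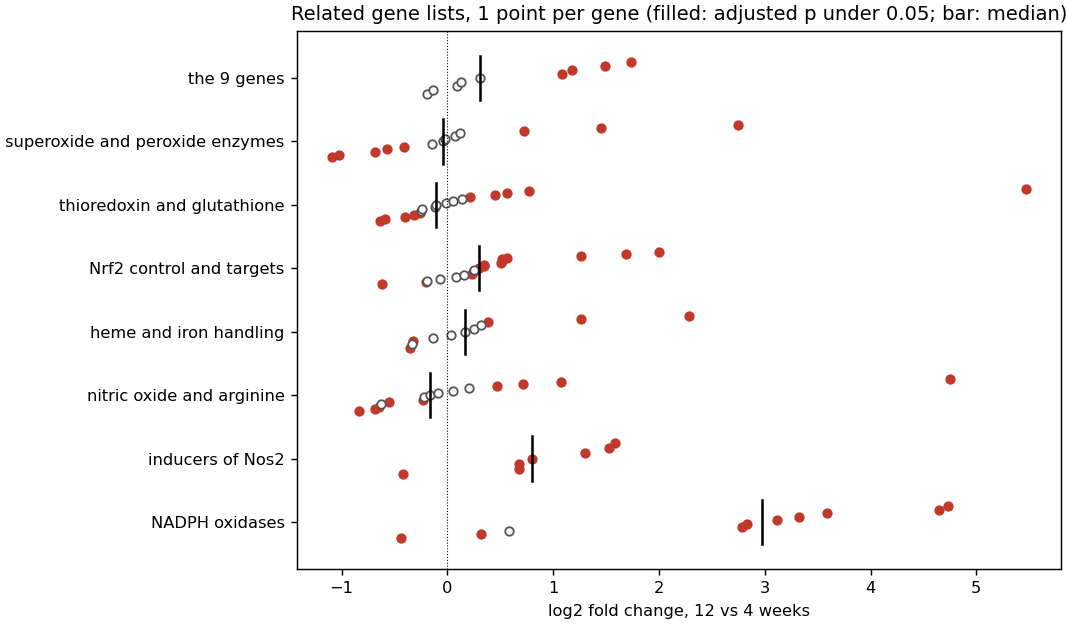
Log2 fold change at 12 against 4 weeks (horizontal axis) of the 9 genes and of the genes of 7 related lists, with 1 point per tested gene, filled where the adjusted p is under 0.05, and a bar at the median. The medians run from -0.16 (nitric oxide and arginine) to 2.97 (NADPH oxidases), and that of the 9 genes is 0.31.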

How the data were processed

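Islet RNA of 15 NOD females (3 per age) was enriched for polyA RNA and sequenced as read pairs. According to the study's methods, the authors trimmed, aligned and counted reads in CLC Genomics Workbench with default settings, and the labels' processing notes name mm10. The deposited counts are whole reads per gene with no normalization, and the deposited TPM values, scaled by the authors for transcript length and depth, were used to compare levels between genes, for ratios between genes, and to set the levels of Sod1 and Sod2 at 4 and 12 weeks beside their CPM. A further 30 per-sample columns (RPKM and CPM) were not used.

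Samples were grouped by the age in the labels. Counts were filtered with filterByExpr (16554 of 48709 genes kept), scaled by TMM and fitted in edgeR 4.0.16 (R 4.3.3) with glmQLFit, one mean per age over all 15 samples, and tested two-sided with glmQLFTest and Benjamini-Hochberg adjustment over all genes tested. CPM per mouse used TMM library sizes, and log2 CPM a prior count of 2. Depth was 25407492 to 41616275 counts per sample, and pairs of mice of one age differed well beyond sampling noise (15.9 to 127, as chi-square divided by its degrees of freedom). The pipeline was tested on simulated data. The alternatives were DESeq2's size factors, library totals, no filter, only the 2 ages compared, the edgeR exact test, DESeq2 1.42.0, a rule of 1.5-fold and unadjusted p, a prior count of 0.5, a replicate block, a leukocyte covariate, and each mouse left out. Figures were drawn with matplotlib 3.10.9.

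All 9 genes are named. Of each related list the text names up to 4 of the greatest called increases and decreases at 12 against 4 weeks and direct counterparts of the 9 genes, and for each of the 9 the 3 genes with the highest Pearson's r. The 9 genes, the 7 related lists and the 8 marker lists were chosen with earlier results of these data known, and the counts over lists are descriptions. Fth1 and Itgam, listed at first, were not analysed here. One gene of the list of inducers of Nos2 is not reported here. Of the marker lists, 3 of 6 endothelial genes were higher and 1 lower at 12 weeks, 1 of 5 ductal genes higher and 2 lower, and 2 of 3 tested intestinal genes higher. Promoter sequences came from RefSeq (GRCm38.p6).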

Additional observations from a re-analysis of the deposited data

How the results depend on the processing

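The joint test called 6 of the 9 genes (9262 of all genes), 7 with DESeq2 (9777 of all genes) and 5 to 7 with a mouse left out. At 12 against 4 weeks 4 of the 9 genes were called (8858 of all genes), and 4 to 5 with a mouse left out. DESeq2's size factors and DESeq2 each called 5 at this contrast (8523 and 8722 of all genes), and library totals called 6 (8376). The leukocyte covariate left 0 called there, 0 in the joint test and 0 in each of the 7 related lists, with Nos2 at -0.10 and Txn1 at -0.23, and only 2 of all genes were called in that fit. Library totals turned Sod1 to 0.053 and Sod2 to 0.10. At 10 against 8 weeks the 3 calls fell to 0 with only the 2 ages compared, the exact test, the replicate block and the leukocyte covariate, and ran from 0 to 4 with a mouse left out. At 6 against 4 weeks the exact test called 1 of the 9 genes, with 265 of all genes. At 8 against 6 weeks DESeq2 called 1 of the 9, with 543 of all genes. The rule of 1.5-fold with an unadjusted p called 2 of the 9 there, with 9.82% of all genes. By that rule the thioredoxin, Nrf2 and heme lists had 4 of 17, 4 of 19 and 2 of 11 genes called at 12 against 4 weeks. At that contrast 31.9% of all genes passed it. A prior count of 0.5 moved no difference between 12 and 4 weeks by more than the spread between mice. Of 25 step values not given singly above (log2 fold changes from -0.14 to 0.72), 0 were called under any setting and 16 changed sign under at least 1.

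Mice with the same replicate number are different animals and did not deviate together (mean r of their deviations -0.08 for 30 pairs, from -0.64 to 0.51, against 0.04 for other pairs), so the replicate block shares only a number. With it, 0 of the 9 genes were called at 10 against 8 weeks, and no other count of called genes among the 9 or in the 7 lists moved by more than 1.5 times. Over all genes, the calls at 6 against 4 weeks went from 15 to 5. With 3 mice per age, Nos2 at 19 to 111 counts per mouse had the widest interval of the 9 genes. The cause of these shifts was not tested.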
